A study of Mus musculus with 6 samples.

Results

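Genes that carry calcium, phosphate and magnesium across the intestinal epithelium were examined in the colon of NHE3-/- mice. NHE3 is the product of Slc9a3, and exchanges sodium for protons at the luminal membrane. The 10 genes were the vitamin D receptor Vdr and its target Cyp24a1, the calcium genes Trpv6, S100g, Atp2b1 and Slc8a1, the phosphate transporters Slc20a1, Slc20a2 and Slc34a2, and the magnesium channel Trpm6. Their members on the array were the probe sets whose platform annotation names exactly 1 of these genes, that is 21 of the 34958 probe sets that name a single gene. The mean log2 signal of 18 of the 21 was above a filter set at the 40th percentile of all probe sets, and these were tested. Of the other 3, 2 read Cyp24a1 and 1 read Slc8a1.

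There were 3 Affymetrix MOE430 2.0 arrays from NHE3-/- mice and 3 from NHE3+/+ littermates of whole colon, all aged 6 to 8 weeks. Each array gives 1 linear signal per probe set, and no read depth applies, so the number of arrays limits the precision. The labels name no strain, no sex, no number of animals per array and no part of the gene that is disrupted. Since they do not tie arrays to separate animals, each p-value reflects the spread among these 6 samples alone, and how much of that spread is technical is not known.

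Slc9a3 itself had signals of 5970, 4266 and 3665 in NHE3-/- colon, against 5908, 5647 and 6669 in NHE3+/+ colon (log2 fold change -0.42, SE 0.16; limma adjusted p = 0.12), and its dimmer probe set had a log2 fold change of 0.76 (adjusted p = 0.23). A probe set outside the disrupted part checks nothing. Median signals were 97.8 to 103.9 on NHE3-/- arrays and 99.7 to 121.4 on NHE3+/+ arrays. Array-to-array correlations of log2 signal were 0.965 to 0.973 within NHE3-/-, 0.969 to 0.970 within NHE3+/+ and 0.932 to 0.959 between genotypes. Xist, the RNA of the inactive X chromosome, had 2639, 1929 and 12.3 on NHE3-/- arrays 1, 2 and 3, against 2 to 8 on NHE3+/+ arrays, and a second Xist probe set had 1562, 1405 and 80.8, against 142.4 to 207.7. The Y-linked gene Eif2s3y had 932.6, 1088 and 1355 on the same NHE3-/- arrays, against 1434 to 1809 on NHE3+/+ arrays. Kdm5d, also Y-linked, had 341.3, 405.5 and 732.9 there, against 654.2 to 783.6. NHE3-/- arrays 1 and 2 thus carried both Xist and Y-linked signal. The tissue carried high signals of colonic surface epithelium, such as 36482 to 47922 for Car1 in NHE3-/- colon and 33084 to 50059 in NHE3+/+ colon. Of 10 smooth muscle markers 7 were above the filter, among them Acta2, smooth muscle actin, at 779.5 to 1324 in NHE3-/- colon and 940.7 to 1146 in NHE3+/+ colon. Others were dimmer, such as Myh11 at 74.2 to 170.8 in NHE3-/- colon and 116.6 to 186.2 in NHE3+/+ colon. Tagln had 13.8 to 282.5 in NHE3-/- colon and 116.5 to 195.6 in NHE3+/+ colon. Cnn1, Lmod1 and Synpo2 were below the filter.

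Absorption of these ions follows a common plan. Calcium enters an epithelial cell through the luminal channel TRPV6, is carried by the small binding protein calbindin (S100g), and leaves through the plasma membrane calcium pump PMCA1 (Atp2b1) or the sodium-calcium exchanger NCX1 (Slc8a1). The vitamin D receptor binds calcitriol, pairs with a retinoid X receptor and raises transcription of Trpv6, S100g and Cyp24a1, whose product in turn inactivates calcitriol. Phosphate enters with sodium, through NaPi-IIb (Slc34a2) or the PiT proteins (Slc20a1, Slc20a2), and magnesium enters through TRPM6, a channel of the large intestine and kidney.

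The 10 genes did not move together. The magnesium channel Trpm6 and the phosphate transporters Slc20a1 and Slc34a2 rose in NHE3-/- colon, the calcium extrusion genes Atp2b1 and Slc8a1 fell, and Vdr, Trpv6, S100g and Slc20a2 did not pass the test. These calls are those of the representative probe set of each gene, the one of highest mean log2 signal, and a call is a limma p under 0.05 after Benjamini-Hochberg adjustment over all 27024 probe sets tested. Of the 9 genes tested, 3 rose and 2 fell. Over all 12553 genes represented in this way 13.9% were called, 6.38% higher and 7.51% lower.

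Counted by probe set, 5 of the 18 tested were higher and 4 lower, against 4.97% higher and 6.24% lower among all probe sets tested (11.2% in either direction). All 3 NHE3-/- arrays lay above all 3 NHE3+/+ arrays in 6 of the 18, below them in 5, and overlapped them in 7. Among all probe sets tested 32.3% did not overlap, 12.2% lying wholly above and 20.1% wholly below. The split over all probe sets moved with the scaling: 1342 were higher and 1685 lower as deposited, against 1595 higher and 839 lower when array medians were equalised, where member probe sets gave 6 higher and 3 lower. The members were chosen with earlier results of these data known, so their share is a description. The median log2 fold change was 0.81 over the 9 representative probe sets, 0.07 over the 18 and -0.10 over all probe sets tested. The median of 0.81 is the value of Trpv6 itself. The median over the representative probe sets was -0.01 without NHE3-/- array 1 and 0.11 with NHE3-/- array 3 alone against NHE3+/+ colon.

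**Figure D1:**
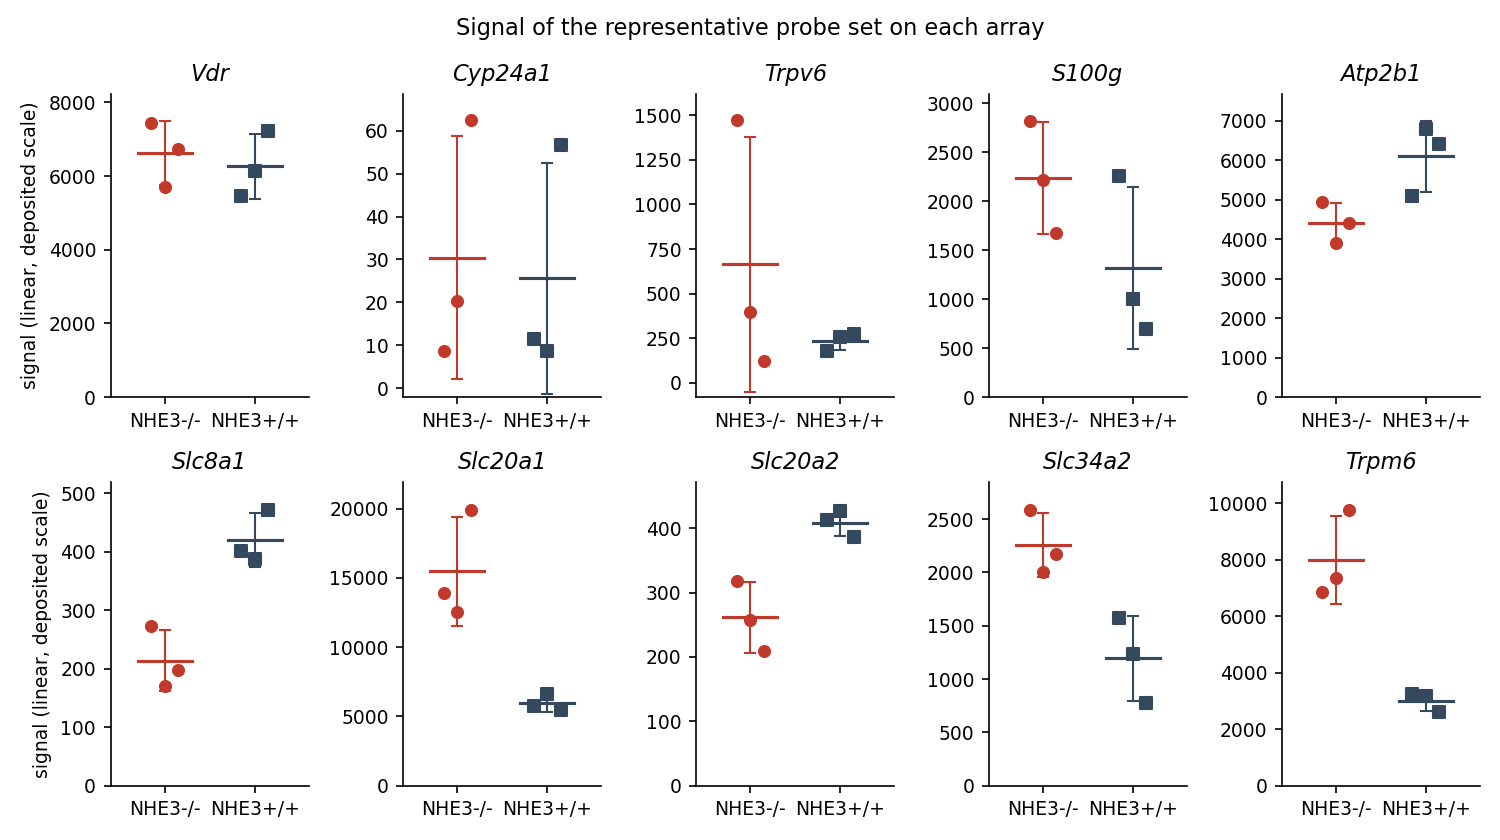
Signal of the representative probe set of each of the 10 genes on each array (linear deposited scale, with its own axis per gene). Points are arrays, horizontal lines are group means and bars are SD (n = 3 each). Trpm6, Slc20a1 and Slc34a2 lay wholly higher in NHE3-/- colon, Atp2b1, Slc8a1 and Slc20a2 wholly lower, and the other 4 genes overlapped between genotypes.

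Vdr, the receptor through which calcitriol acts, was covered by a pair of probe sets. The representative had signals of 7438, 5709 and 6721 in NHE3-/- colon, against 5467, 6126 and 7211 in NHE3+/+ colon. The genotypes overlapped, and the log2 fold change was 0.08 (SE 0.13, 95% interval -0.21 to 0.37; limma adjusted p = 0.737). The other had 4769, 4210 and 5581 in NHE3-/- colon, against 4244, 4423 and 5382 in NHE3+/+ colon (log2 fold change 0.05, SE 0.13; adjusted p = 0.841). The sign of both values turned negative with quantile normalization (-0.06 and -0.05).

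Cyp24a1, the vitamin D-inactivating hydroxylase, was dim on every array. Its representative probe set had 8.6, 20.3 and 62.4 in NHE3-/- colon, against 11.4, 8.8 and 56.6 in NHE3+/+ colon. The other had 2, 13.7 and 89.9 in NHE3-/- colon and 31.5, 4.3 and 19.8 in NHE3+/+ colon. Both were below the filter, their values overlapped between genotypes, and neither was tested. On this scale the filter corresponds to a signal of about 60.2.

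Trpv6, the luminal calcium channel, differed more among the NHE3-/- arrays than between genotypes. It had signals of 1474, 398 and 121.5 on NHE3-/- arrays 1, 2 and 3, against 176.5, 257.2 and 272.5 in NHE3+/+ colon. NHE3-/- arrays 1 and 2 lay above all NHE3+/+ arrays, and NHE3-/- array 3 lay below all of them. The log2 fold change was 0.81 with an SE of 0.61 (95% interval -0.52 to 2.15; limma adjusted p = 0.417). Arrays 1 and 2 are also the NHE3-/- arrays with both Xist and Y-linked signal, and the part of this in the Trpv6 values was not tested. With the Xist log2 signal as a covariate the Trpv6 value was -0.22, with NHE3-/- array 3 alone it was -0.78, and without NHE3-/- array 1 it was -0.04.

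S100g, the calcium-binding protein that ferries calcium through the cell, had signals of 2816, 2217 and 1670 in NHE3-/- colon, against 2253, 1004 and 699 in NHE3+/+ colon. The NHE3-/- arrays lay above 2 of the 3 NHE3+/+ arrays, and NHE3+/+ array 1 lay among them. The log2 fold change was 0.89 (SE 0.34, 95% interval 0.14 to 1.63), which did not pass after adjustment (limma adjusted p = 0.116). The value moved widely with the arrays used. Without NHE3+/+ array 1 it was 1.35 (adjusted p = 0.00644), and without NHE3+/+ array 3 it was 0.53 (adjusted p = 0.341). With the Xist covariate it was 0.57 (adjusted p = 0.359), and with NHE3-/- array 3 alone 0.50 (adjusted p = 0.58). NHE3+/+ array 1 also had the highest summed signal of the 8 pancreas markers on the array, at 9767, against 7817 and 7229 on the other NHE3+/+ arrays. These sums were 5375 to 5982 in NHE3-/- colon. Most of each sum was Cela1, at 6337, 6368 and 5023 on NHE3+/+ arrays 1, 2 and 3, and 4419 to 5409 in NHE3-/- colon. Ctrb1 had 201.1, 13.9 and 10.6 on NHE3-/- arrays 1, 2 and 3, against 402.6, 7.6 and 26.6 on NHE3+/+ arrays 1, 2 and 3. Cela2a had 206.5, 30.7 and 53.1 on the NHE3-/- arrays, against 621.2, 75.5 and 108 on the NHE3+/+ arrays. Clps and Cela1 were instead lowest on NHE3-/- array 1 within that genotype. Within NHE3+/+, Clps was highest on array 3 and Cela1 on array 2, and Ins2 was lowest on array 1. Of these markers 5 were tested and 1 fell, the colipase gene Clps (log2 fold change -2.36; limma adjusted p = 0.000196), and Cpa1, Cpb1 and Ctrb1 were below the filter. Among all genes by representative probe set, 7.51% were called lower. The part of these transcripts in the S100g result was not tested.

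Promoter windows from RefSeq (GRCm38.p6, from 250 bases before to 50 bases after the annotated start) were found for 8 of the 10 genes, in 10 windows. No window was available for Slc20a2 or for the receptor target Cyp24a1, so the counts below leave them out. Windows are shown for the receptor targets Trpv6 (chr6:41636356-41636655, minus strand) and S100g (chrX:162964550-162964849, minus strand), because these windows hold more than 1 receptor-type hexamer. Capitals mark the hexamers AGGTCA and GGTTCA on either strand, so TGACCT and TGAACC are matches on the opposite strand.
Trpv6: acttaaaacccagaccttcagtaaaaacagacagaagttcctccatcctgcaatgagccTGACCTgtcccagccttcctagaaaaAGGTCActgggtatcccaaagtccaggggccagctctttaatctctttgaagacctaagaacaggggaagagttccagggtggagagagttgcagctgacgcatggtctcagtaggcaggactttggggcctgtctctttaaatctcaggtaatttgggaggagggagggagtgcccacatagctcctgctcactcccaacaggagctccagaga
S100g: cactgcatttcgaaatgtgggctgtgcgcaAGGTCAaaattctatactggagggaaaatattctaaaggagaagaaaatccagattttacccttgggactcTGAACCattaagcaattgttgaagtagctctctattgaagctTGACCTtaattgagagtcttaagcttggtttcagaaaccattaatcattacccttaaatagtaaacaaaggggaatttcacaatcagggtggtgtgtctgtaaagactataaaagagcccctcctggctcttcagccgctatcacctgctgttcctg
The Trpv6 window holds AGGTCA at positions 60 to 65 (opposite strand) and 86 to 91, counted from its 5′ end. The S100g window holds AGGTCA at 31 to 36 and at 144 to 149 (opposite strand) and GGTTCA at 102 to 107 (opposite strand). At least 1 of these hexamers was present in 4 of the 10 member windows, against 24.8% of all 32851 windows. At least 2 hexamers were present in 2 member windows, against 4.15% of all. The paired element bound by the receptor with its partner is DR3, a direct repeat of AGGTCA with a 3-base spacer. With up to 2 mismatches, on either strand, it was in 0 of the 10 member windows and in 3.06% of all. The degenerate DR3 motif was in 0 of the 10 and in 0.256% of all. A match here is a description of letters, and a missing one says only that these letters are not in this window.

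Both calcium extrusion genes were lower in NHE3-/- colon. Atp2b1, which encodes the plasma membrane calcium pump, was read by 3 probe sets. The representative had signals of 4929, 3900 and 4400 in NHE3-/- colon, against 5087, 6794 and 6397 in NHE3+/+ colon. All NHE3-/- arrays lay below all NHE3+/+ arrays, with a log2 fold change of -0.46 (SE 0.13; limma adjusted p = 0.0471). Of the 6 leave-one-out fits, this call was held in 1, that without NHE3+/+ array 1. It was lost without NHE3+/+ arrays 2 (-0.38) or 3 (-0.42) and without NHE3-/- arrays 1 (-0.54), 2 (-0.37) or 3 (-0.46). It was also lost with medians set equal (-0.37, adjusted p = 0.104), and 4 of all 16 alternative fits kept it.

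The other Atp2b1 probe sets pointed the same way. One had 4575, 3825 and 2510 in NHE3-/- colon, against 5441, 6724 and 7364 in NHE3+/+ colon (log2 fold change -0.87, SE 0.19; limma adjusted p = 0.0171). It was not called without NHE3+/+ array 2 (-0.84) or 3 (-0.77), or without the variance trend (adjusted p = 0.0946). The third had 1728, 1378 and 1379 in NHE3-/- colon, against 1648, 2181 and 2093 in NHE3+/+ colon. There NHE3-/- array 1 lay above NHE3+/+ array 1, and the probe set did not pass (-0.39, SE 0.14, adjusted p = 0.103). Without NHE3+/+ array 1 it was -0.51 (adjusted p = 0.0459).

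Slc8a1, the sodium-calcium exchanger, was read by 4 probe sets, 3 of them tested. The representative had 272.1, 171.1 and 197.2 in NHE3-/- colon, against 400.5, 387.1 and 471.8 in NHE3+/+ colon. The genotypes did not overlap, and the log2 fold change was -0.90 (SE 0.20; limma adjusted p = 0.0173). The call was lost without NHE3+/+ array 3 (-0.82), NHE3-/- array 2 (-0.77) or NHE3-/- array 3 (-0.86), and with NHE3-/- array 3 alone (-0.98, adjusted p = 0.0563).

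A second Slc8a1 probe set had 180.2, 177.2 and 122.7 in NHE3-/- colon, against 372.6, 316.9 and 388.5 in NHE3+/+ colon (log2 fold change -1.04, SE 0.21; limma adjusted p = 0.00971). It was called in all 6 leave-one-out fits, with log2 fold changes from -1.12 to -0.89. The third overlapped between genotypes, at 73.6, 121.1 and 20.7 in NHE3-/- colon against 115.3, 189.1 and 111.3 in NHE3+/+ colon (log2 fold change -0.82, SE 0.40, adjusted p = 0.205). It passed with the Xist covariate (-1.37, adjusted p = 0.0385) and with NHE3-/- array 3 alone (-1.68, adjusted p = 0.0466), and was -0.40 without NHE3-/- array 3. The fourth was below the filter, at 32.1 to 69.2 in NHE3-/- colon and 2.9 to 55.9 in NHE3+/+ colon.

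NCX1 is known from excitable cells as well as epithelia, and in bulk tissue fewer cells of a type and less RNA per cell cannot be told apart. Of the smooth muscle markers, 0 of the 7 tested passed the limma test in either direction and 1 had an unadjusted p under 0.05. Their summed signal was 2455 to 4135 in NHE3-/- colon and 3179 to 3712 in NHE3+/+ colon. Of 10 markers of enteric neurons and glia, 5 were tested and 1 rose, Nos1, the neuronal nitric oxide synthase (log2 fold change 1.14, limma adjusted p = 0.0326, not called without any 1 of the 6 arrays). Among all genes by representative probe set, 6.38% were called higher and 7.51% lower. Nos1 had 133.5, 124.3 and 147.4 in NHE3-/- colon, against 52.7, 27.2 and 56.5 in NHE3+/+ colon. The NHE3+/+ signals were all under the filter signal of about 60.2, so Nos1 was tested only through its NHE3-/- values. Elavl4, S100b and Gfap were below the filter. The summed signal of that list was 528 to 1037 in NHE3-/- colon and 424 to 646 in NHE3+/+ colon.

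**Figure D2:**
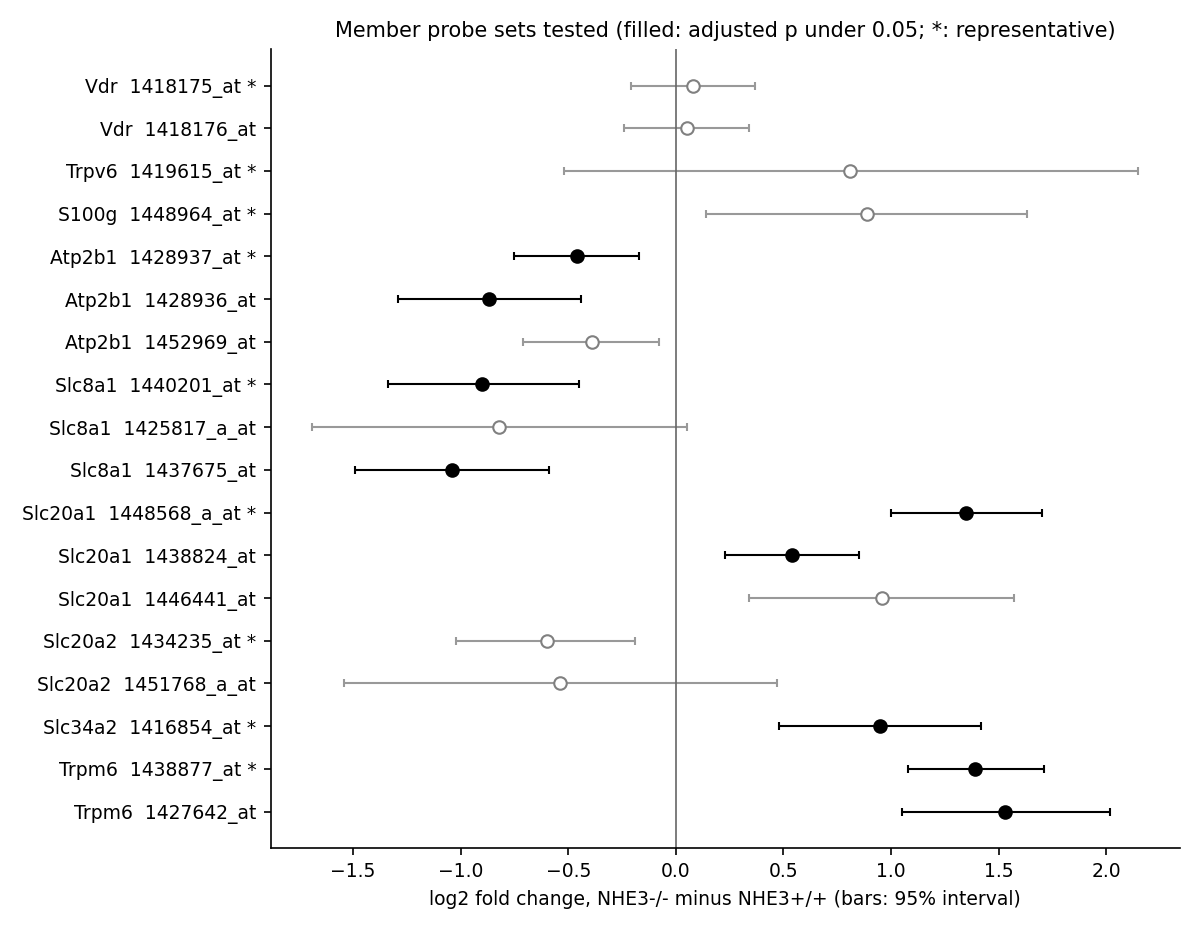
Log2 fold change of each of the 18 member probe sets tested, NHE3-/- minus NHE3+/+, with 95% intervals; filled points passed the limma threshold and an asterisk marks the representative probe set of a gene. Probe sets of Trpm6 and Slc20a1 lie to the right of 0, those of Atp2b1 and Slc8a1 to the left, and the Trpv6 interval runs from -0.52 to 2.15.

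Of the phosphate transporters, Slc20a1 and Slc34a2 rose and Slc20a2 did not pass. Slc20a1, which encodes the sodium-phosphate transporter PiT-1, had representative signals of 13934, 12538 and 19937 in NHE3-/- colon, against 5720, 6646 and 5476 in NHE3+/+ colon. Mean signal was 15469 ± 3931 in NHE3-/- colon and 5948 ± 617 in NHE3+/+ colon (SD, n = 3 each), a 2.60-fold ratio. The log2 fold change was 1.35 (SE 0.16; limma adjusted p = 0.00048). It was called in all 16 alternative fits, with log2 fold changes from 1.15 to 1.74.

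The dimmer Slc20a1 probe sets were also wholly higher in NHE3-/- colon. One had 1477, 1391 and 1777 in NHE3-/- colon, against 905, 1139 and 1127 in NHE3+/+ colon (log2 fold change 0.54, SE 0.14; limma adjusted p = 0.0333). That call was lost without NHE3+/+ arrays 1 (0.43), 2 (0.59) or 3 (0.59), or without NHE3-/- arrays 1 (0.57) or 3 (0.44), as well as without the variance trend (adjusted p = 0.11) and with NHE3-/- array 3 alone (0.74, adjusted p = 0.0596). The other had 244.7, 145.7 and 327.6 in NHE3-/- colon, against 105.5, 110 and 92.2 in NHE3+/+ colon, and was just outside the threshold (0.96, SE 0.28, adjusted p = 0.0504). Without NHE3-/- array 2 it was 1.24 (adjusted p = 0.0197) and without NHE3-/- array 3 it was 0.73 (adjusted p = 0.178). It passed with quantile normalization (1.09, adjusted p = 0.0339) and with medians set equal (1.05, adjusted p = 0.0305).

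Slc20a2, the gene of the related transporter PiT-2, was lower by value but did not pass. Its representative had 318.7, 257.9 and 208.9 in NHE3-/- colon, against 412.7, 426.9 and 387 in NHE3+/+ colon, with no overlap (log2 fold change -0.60, SE 0.19; limma adjusted p = 0.0634). Adding the Xist covariate gave -0.78 (adjusted p = 0.0344), the stricter filter -0.60 (adjusted p = 0.0492) and quantile normalization -0.44 (adjusted p = 0.17). Its second probe set spread widely, with 49.2, 340 and 138.2 in NHE3-/- colon and 299.2, 215.7 and 158 in NHE3+/+ colon (log2 fold change -0.54, SE 0.46, adjusted p = 0.482), and was at 0.01 without NHE3-/- array 1.

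Slc34a2, the brush border phosphate transporter NaPi-IIb best known from small intestine and lung, was read by 1 probe set. It had 2588, 2006 and 2172 in NHE3-/- colon, against 1576, 1230 and 778 in NHE3+/+ colon. All NHE3-/- arrays were higher than all NHE3+/+ arrays, with a log2 fold change of 0.95 (SE 0.21; limma adjusted p = 0.0174). The call was lost without NHE3+/+ array 2 (1.00, adjusted p = 0.0517) or NHE3-/- array 1 (0.85, adjusted p = 0.0622), and when the Xist covariate was added (0.87, adjusted p = 0.0537). It was also lost without the variance trend (0.95, adjusted p = 0.0898) and with NHE3-/- array 3 alone (0.90, adjusted p = 0.122), so that 11 of 16 alternative fits kept it. Of 10 small intestine markers 8 were tested, 2 rose (the glucose transporter gene Slc5a1, and the apolipoprotein gene Apoa1, called in 3 of 6 leave-one-out fits) and 0 fell. Among all genes by representative probe set, 6.38% were called higher and 7.51% lower. The summed signal of that list was 32098 to 40971 in NHE3-/- colon and 30482 to 38911 in NHE3+/+ colon. Much of it was Fabp2, at 15502 to 21653 in NHE3-/- colon and 20963 to 24648 in NHE3+/+ colon. Log2 fold changes of the tested markers ran from -0.30 (Fabp2) to 1.67 (Apoa1), with a median of 0.67. The part of these transcripts in the Slc34a2 result was not tested.

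Trpm6, the luminal magnesium channel, had the smallest adjusted p of the 10 genes. The representative probe set had 6870, 7340 and 9768 in NHE3-/- colon, against 3252, 3163 and 2597 in NHE3+/+ colon. The mean was 7993 ± 1555 in NHE3-/- colon and 3004 ± 355 in NHE3+/+ colon (SD, n = 3 each), a 2.66-fold ratio. Every NHE3-/- array was above every NHE3+/+ array, with a log2 fold change of 1.39 (SE 0.14; limma adjusted p = 0.000211).

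The second Trpm6 probe set had 2772, 2781 and 3141 in NHE3-/- colon, against 1317, 1139 and 622 in NHE3+/+ colon (log2 fold change 1.53, SE 0.22; limma adjusted p = 0.00175). Both were called in all 16 alternative fits, with log2 fold changes from 1.24 to 1.70 for the first and 1.22 to 1.74 for the second.

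The windows of Slc20a1 and Trpm6 are shown because the representative probe sets of these 2 genes were called higher in every fit made. Slc20a1 has 2 annotated starts, and the first (chr2:129198523-129198822, plus strand) is given with Trpm6 (chr19:18749480-18749779, plus strand), with the same capitals as above.
Slc20a1: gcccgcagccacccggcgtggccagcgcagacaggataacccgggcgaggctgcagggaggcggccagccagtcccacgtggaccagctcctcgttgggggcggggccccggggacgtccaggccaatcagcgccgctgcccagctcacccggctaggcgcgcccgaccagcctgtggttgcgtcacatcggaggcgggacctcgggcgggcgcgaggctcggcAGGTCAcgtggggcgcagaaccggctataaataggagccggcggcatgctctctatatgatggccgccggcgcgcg
Trpm6: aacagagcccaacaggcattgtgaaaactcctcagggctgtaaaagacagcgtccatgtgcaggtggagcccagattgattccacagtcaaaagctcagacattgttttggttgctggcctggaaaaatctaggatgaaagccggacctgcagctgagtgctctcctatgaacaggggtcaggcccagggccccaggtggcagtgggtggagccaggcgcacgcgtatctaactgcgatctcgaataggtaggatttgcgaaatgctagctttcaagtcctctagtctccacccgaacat
The first Slc20a1 window holds 1 AGGTCA, at positions 225 to 230 of the window, and the second start has 1 on the opposite strand. The Trpm6 window holds none of these hexamers. The Slc20a1 window is 73.0% G and C and the Trpm6 window 53.0%, against a median of 52.7% over all windows.

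**Figure D3:**
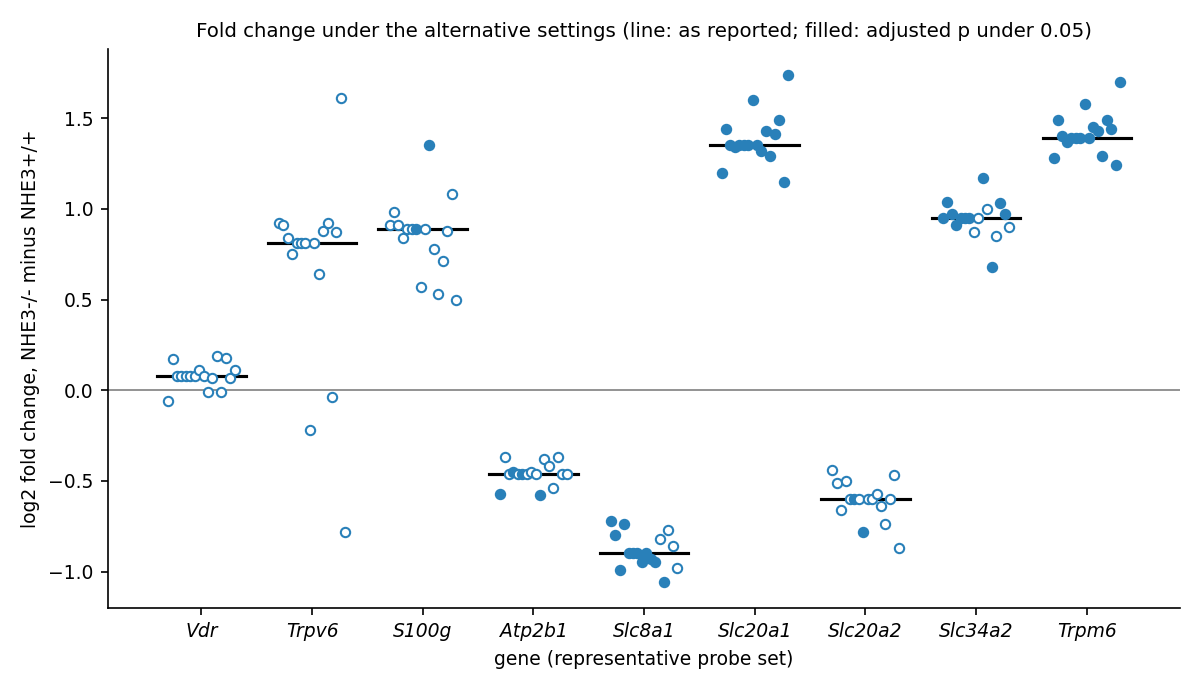
Log2 fold change of the representative probe set of each of the 9 genes tested, NHE3-/- minus NHE3+/+, under each of 16 alternative settings (points, filled where the adjusted p was under 0.05); the line is the value as reported. Trpm6 and Slc20a1 stayed called throughout, while Trpv6 ran from -0.78 to 1.61.

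Some markers of the epithelial layers also differed between genotypes. Over all genes represented in the same way, 6.38% were called higher and 7.51% lower. Of 10 markers of colonic surface epithelium, all tested, 4 rose (Car4, Aqp8, Slc26a3 and Vil1) and 0 fell. The other 6 did not pass, with log2 fold changes from -0.22 (Guca2a) to 0.29 (Cdhr5). The summed signal of the surface markers was 278865 to 349095 in NHE3-/- colon and 228895 to 273176 in NHE3+/+ colon. Of 9 tested markers of crypt and dividing cells 7 fell and 0 rose, among them Mki67 (log2 fold change -0.82) and Lgr5 (-1.20). Their summed signal was 4499 to 5720 in NHE3-/- colon and 8093 to 9088 in NHE3+/+ colon. Their part in the values of Trpm6, Slc20a1, Slc34a2, Atp2b1 and Slc8a1 was not tested.

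Beyond the 10 genes, vitamin D metabolism and further receptor targets were compared through a list of 21 genes, of which 13 were tested, 2 rose and 1 fell. Among all genes by representative probe set, 6.38% were called higher and 7.51% lower. The same share stands beside the further calcium, phosphate and magnesium lists below. Cyp27a1, a mitochondrial sterol hydroxylase that can act on vitamin D and on bile acid precursors, had 1814, 1504 and 1691 in NHE3-/- colon, against 367.3, 506.4 and 421.9 in NHE3+/+ colon (log2 fold change 1.88, SE 0.15; limma adjusted p = 3.57e-05). All NHE3-/- arrays were above all NHE3+/+ arrays, and the call was held in all 16 alternative fits. Cdkn1a, the cell cycle inhibitor p21, rose by 0.73 on the log2 scale (SE 0.15, adjusted p = 0.0115).

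The tight junction claudin gene Cldn2 had 2315, 2403 and 1987 in NHE3-/- colon, against 3922, 2480 and 4315 in NHE3+/+ colon (log2 fold change -0.63, SE 0.18; limma adjusted p = 0.0475). This call was held in 1 of 6 leave-one-out fits, that without NHE3+/+ array 2. The value was -0.55 and -0.48 without NHE3+/+ arrays 1 and 3, and -0.66, -0.69 and -0.55 without NHE3-/- arrays 1, 2 and 3. Its other probe set had -0.58 and did not pass (adjusted p = 0.0902). Receptor partners and other targets did not pass: Rxra had -0.07, Rxrb 0.37, Cldn12 -0.19, the manganese exporter gene Slc30a10 -0.39 and Abcb1a, a drug efflux pump, 0.14. The median log2 fold change of the list was -0.07.

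Of 20 further genes of calcium transport and sensing 9 were tested, 1 rose and 3 fell. S100a10, which with annexin A2 brings TRPV6 to the membrane, had 23593, 25546 and 26993 in NHE3-/- colon, against 19830, 20566 and 17257 in NHE3+/+ colon (log2 fold change 0.40, SE 0.10; limma adjusted p = 0.0307). Other S100a10 probe sets had -0.10 and 0.12 and were not called. Anxa2 itself had 0.31 (SE 0.10, adjusted p = 0.0735). Cldn15, a claudin that forms sodium-permeable pores, had 1449, 1301 and 1074 in NHE3-/- colon, against 2734, 2138 and 2076 in NHE3+/+ colon (log2 fold change -0.85, SE 0.15, adjusted p = 0.00508).

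Atp2a3, a calcium pump of the endoplasmic reticulum, fell by 0.35 on the log2 scale (SE 0.09; limma adjusted p = 0.0303), and this call was held in 0 of 6 leave-one-out fits (-0.36 to -0.33). Its other probe set had -0.03 (SE 0.16, adjusted p = 0.92), with overlapping genotypes. Stc2, a stanniocalcin hormone gene, had -0.84 (SE 0.21, adjusted p = 0.029), and was not called without NHE3+/+ arrays 2 (-0.66) or 3 (-0.87) or NHE3-/- arrays 1 (-0.83) or 2 (-0.78). Of its other probe sets 1 was called lower (-1.22, limma adjusted p = 0.0332) and 1 did not pass (-0.57, adjusted p = 0.501). The one called had 37.4, 60.5 and 22.4 in NHE3-/- colon, against 122, 165.2 and 112.3 in NHE3+/+ colon. Its NHE3-/- mean of 40.1 was under the filter signal of about 60.2. It was thus tested only through its NHE3+/+ values, and its call adds no separate support. S100a10 was not called without NHE3+/+ arrays 1 (0.43) or 3 (0.33) or NHE3-/- arrays 2 (0.40) or 3 (0.36). The median of the calcium list was -0.06.

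Of 15 further phosphate genes 8 were tested, 1 rose and 1 fell, with a median log2 fold change of 0.16. Slc25a3, the mitochondrial phosphate carrier gene, had 31665, 34129 and 38304 in NHE3-/- colon, against 23679, 29087 and 23643 in NHE3+/+ colon (log2 fold change 0.45, SE 0.12; limma adjusted p = 0.0308). It was not called without NHE3+/+ arrays 1 (0.40) or 3 (0.40) or NHE3-/- arrays 2 (0.46) or 3 (0.37), and its dimmer probe set had 0.10 (adjusted p = 0.803). Ank, a membrane protein that exports pyrophosphate and other anions, had 1738, 1470 and 1481 in NHE3-/- colon, against 2500, 2030 and 2531 in NHE3+/+ colon (-0.58, SE 0.13, adjusted p = 0.0156). It was not called without NHE3+/+ array 3 (-0.52) or NHE3-/- arrays 2 (-0.54) or 3 (-0.54), nor with medians set equal (-0.48). Xpr1, the phosphate exporter, did not pass with any of its 6 probe sets tested, with log2 fold changes from 0.19 to 0.62. The representative had the smallest value, 0.19 (SE 0.14, adjusted p = 0.399). The probe set at 0.62 (SE 0.19, limma adjusted p = 0.0588) lay wholly higher in NHE3-/- colon.

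Of 17 further magnesium genes 13 were tested, 0 rose and 1 fell, with 5 at an unadjusted limma p under 0.05 and a median log2 fold change of -0.21. Mrs2, the magnesium channel of the mitochondrial inner membrane, had 984, 940 and 722 in NHE3-/- colon, against 1405, 1384 and 1613 in NHE3+/+ colon (log2 fold change -0.72, SE 0.14; limma adjusted p = 0.00991). Its other probe set had 0.13 and was not called. Cnnm4, which encodes a basolateral magnesium exporter, had 15162, 12493 and 16309 in NHE3-/- colon, against 13219, 11511 and 8467 in NHE3+/+ colon, and did not pass (0.42, SE 0.16, adjusted p = 0.115), nor did its other probe sets (0.33 and -0.21). Trpm7, the close relative and partner of TRPM6, had 932, 949 and 1075 in NHE3-/- colon, against 1249, 1152 and 1556 in NHE3+/+ colon, and did not pass (-0.40, SE 0.14, adjusted p = 0.0921), nor did its other 3 probe sets (-0.70 to 0.13).

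**Figure D4:**
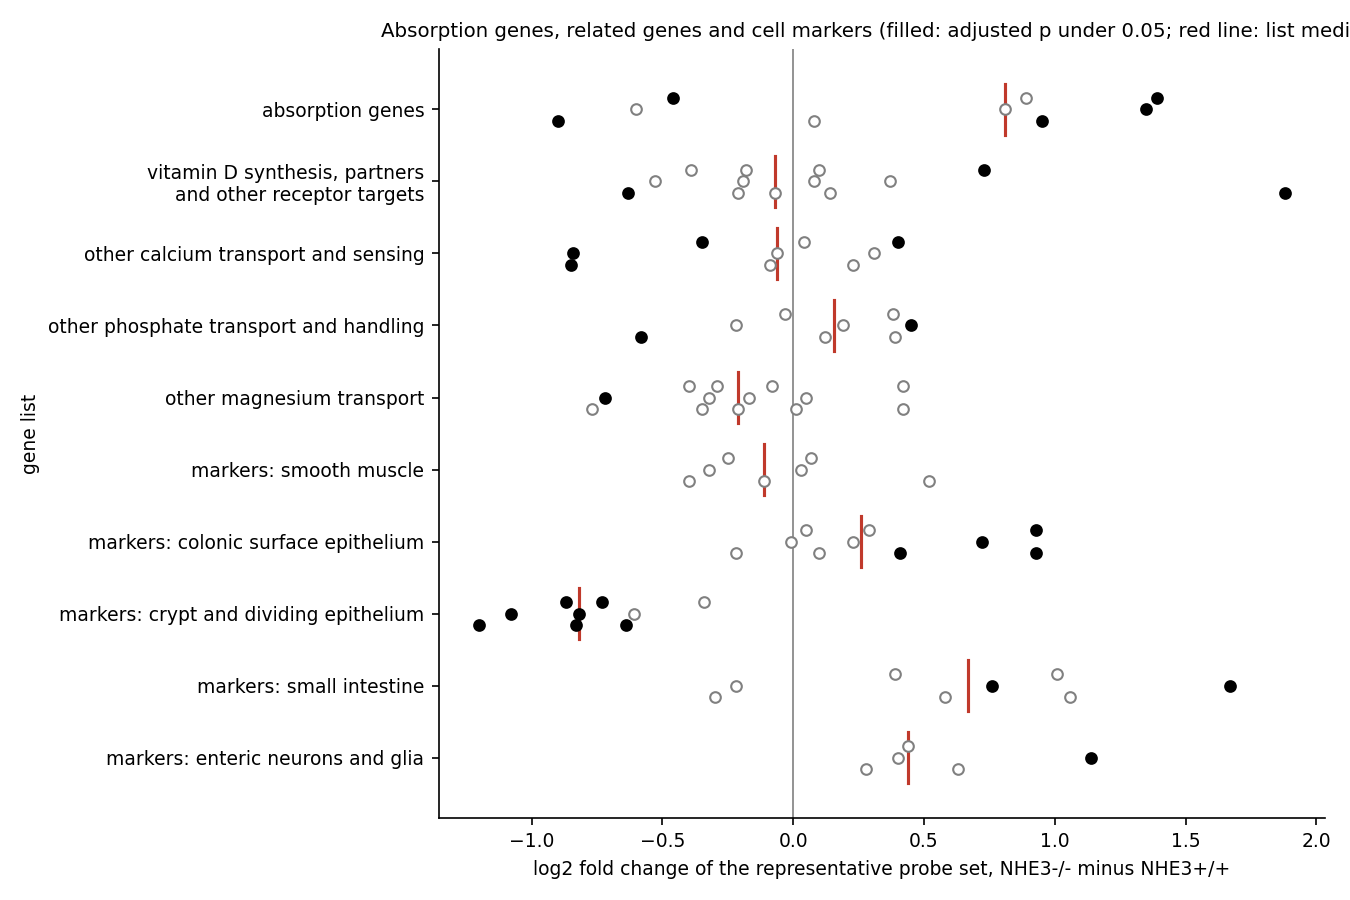
Log2 fold change of the representative probe set of each tested gene, NHE3-/- minus NHE3+/+, by gene list; filled points passed the limma threshold and red lines are list medians. The 9 tested absorption genes at the top spread from -0.90 to 1.39, the vitamin D genes from -0.63 to 1.88, and the further calcium, phosphate and magnesium genes from -0.85 to 0.45.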

How the data were processed

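Total RNA of whole colon, 3 NHE3-/- and 3 NHE3+/+ samples, was biotin-labelled and hybridised to 1 array each. The authors deposited linear intensity values, 1 per probe set; per the submitters' processing notes these came from GCOS, the Affymetrix software, with no settings named there. The mean after trimming 2% from each end was 500 on every array. No detection calls were used here.

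From 45101 probe sets, values were taken as log2(signal + 31.4). The added 31.4 is the 25th percentile of deposited values, so fold changes of dim probe sets are understated. The 64 array controls and probe sets under the 40th percentile of mean log2 signal were left out. The remaining 27024 were fitted with limma 3.58.1 in R 4.3.3 (lmFit, eBayes with trend, genotype alone, two-sided) with Benjamini-Hochberg adjustment. Alternatives changed the normalization, pseudocount, filter, variance trend, replicate block, Xist covariate or arrays used. The fit was tested on simulated data.

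Genes were named from the platform annotation (932 probe sets name several genes and 9211 none), and all 10 gene IDs matched RefSeq. Named were all 10 genes with every probe set, and from the 4 related lists (73 genes) those past the threshold, with others as examples chosen after their values were seen. Members and lists were chosen with earlier results of these data known. Markers of pancreas and of sex were also listed: 1 of 5 tested pancreas markers fell (Clps) and 0 of 4 tested sex markers passed through their representative probe sets. Listed genes that no probe set named alone were not analysed here.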

Additional observations from a re-analysis of the deposited data

How the results depend on the processing

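With each array left out in turn, representative probe sets gave 2 to 4 genes higher and 0 to 2 lower, and member probe sets 3 to 6 higher and 1 to 5 lower; over all probe sets 820 to 1212 were higher and 765 to 1372 lower. List medians then ran from -0.01 to 0.97 for the 10 genes, -0.14 to 0.04 for vitamin D, -0.10 to 0.05 for calcium, 0.07 to 0.26 for phosphate and -0.27 to -0.16 for magnesium. The count of genes lower was 1 in place of 2 with medians set equal, a pseudocount of 1, no filter or no variance trend, and 0 with NHE3-/- array 3 alone. Without the trend, member probe sets gave 3 higher and 2 lower, and all probe sets 511 and 558. Array 3 alone gave 752 higher over all probe sets, and medians set equal 839 lower. The median of the 10 genes was 0.11 with the Xist covariate and with array 3 alone. The vitamin D median was 0.02 with medians set equal. The calcium median was 0.00 with quantile normalization, 0.03 with medians set equal, 0.04 with the stricter filter, 0.02 with the Xist covariate and 0.01 with array 3 alone. The phosphate median was 0.38 with the stricter filter. The magnesium median was -0.12 with quantile normalization or medians set equal, -0.16 with a pseudocount of 100, -0.27 with the Xist covariate and -0.28 with array 3 alone. The cause of these shifts was not tested.

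Values that turned sign, none of them called, were Vdr (-0.06 and -0.05 for its probe sets with quantile normalization, -0.01 and -0.02 without NHE3+/+ array 1, -0.01 without NHE3-/- array 1 and -0.06 without NHE3-/- array 3), Trpv6 (-0.22 with the Xist covariate, -0.78 with array 3 alone, -0.04 without NHE3-/- array 1) and the second Slc20a2 probe set (0.01 without NHE3-/- array 1). Leave-one-out values ran from -0.01 to 0.19 and -0.06 to 0.15 for the Vdr probe sets, -0.04 to 1.61 for Trpv6 and -1.09 to 0.01 for this Slc20a2 probe set. The median of all probe sets tested was -0.10, and became -0.02 with quantile normalization and -0.01 when medians were equalised. Trpm6, Slc20a1 and Cyp27a1 kept their calls, through their representative probe sets, in all 16 alternatives.

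With the replicate block, 1 gene was lower in place of 2 (Atp2b1 at -0.46, adjusted p = 0.079) and S100g passed (0.89, adjusted p = 0.0152). Deviations of same-numbered arrays from their group means correlated at 0.026, -0.038 and 0.003, and those of differently numbered arrays at -0.054 to 0.050. The labels do not say whether equal numbers share a litter or a day. Correlations from so few arrays cannot decide it. With 3 arrays a genotype and no detection calls, signals near the filter (Cyp24a1, 1 Slc8a1 probe set) give no comparison.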

Other observations

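Casr and Cyp27b1 were read below the filter and were not tested, whereas Cyp3a11 was tested and did not pass. Casr, the calcium-sensing receptor, had signals of 52, 9.3 and 26.3 in NHE3-/- colon, against 65, 97.5 and 80 in NHE3+/+ colon, without overlap. Among all probe sets tested, 32.3% did not overlap in either direction. Cyp27b1, the enzyme that makes calcitriol, had 2.2, 7 and 5.1 in NHE3-/- colon, against 23.8, 18.2 and 9.8 in NHE3+/+ colon. Cyp3a11, a hydroxylase of liver and intestine, was at 190.8, 88.9 and 141.1 in NHE3-/- colon and at 86.6, 116.3 and 771.9 in NHE3+/+ colon, where a single array was high (log2 fold change -0.53, SE 0.59; limma adjusted p = 0.598).

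Nherf1, listed as Slc9a3r1, the scaffold that anchors phosphate transporters and NHE3 at the brush border, had 16952, 13999 and 17932 in NHE3-/- colon, against 11336, 12286 and 13937 in NHE3+/+ colon. This representative probe set did not pass (log2 fold change 0.38, SE 0.12; limma adjusted p = 0.0681), whereas its other probe sets did, at 0.46 and 0.63.

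Over the 6 arrays, the probe sets with log2 signals most like those of Vdr named Foxo1 (Pearson r = 0.991), Gadd45gip1 (0.989) and Specc1 (0.980). These were the highest values among the tested probe sets that name a single gene other than Vdr. Probe sets naming several genes or none were not ranked. Gadd45gip1 was dim, at 40.5 to 120.4 over the arrays, where the filter corresponds to about 60.2. None of the 3 genes passed the genotype test, and the similarity is a description of these arrays.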
